A study of Mus musculus with 4 samples.

Results

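The p53 and cellular senescence programme was followed through 9 genes on 4 mouse liver arrays: Trp53, which encodes p53 itself, its antagonist Mdm2, the p53 target genes Phlda3, Cdkn1a, Ccng1, Trp53inp1 and Bax, and the senescence regulators Cdkn2a and Cdkn2b. They were chosen by name, with their signal on these arrays already known, so their levels are given as a description and no test is attached to them. The arrays carry 15 probes for these 9 genes, among 56605 probes and 23462 gene symbols in all. Total RNA came from whole liver of male mice that had fasted for 12 h. One array held RNA of natural aging mice without a drug (the natural aging array) and another that of aging diabetic mice, labelled only as taken after modeling (the diabetic array). The remaining arrays held RNA of aging diabetic mice given metformin, a glucose-lowering biguanide (the metformin array), or given astragalus polysaccharide (APS), a plant root extract, together with metformin (the combination array). A group with APS alone is not analysed here. Strain, age, doses, the way diabetes was induced, what is meant by the 60 days named in each title, and whether 1 mouse or a pool gave each RNA are not given in the sources used here. With 1 array in a group there is no replicate check, and "higher" and "lower" describe these 4 arrays only.

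The protein p53 is a transcription factor that is held at a low level by Mdm2, a ubiquitin ligase whose own gene p53 switches on. When DNA damage or other stress frees p53 from Mdm2, it raises genes that stop the cell cycle, repair damage, restrain growth signalling or start cell death. The cell cycle inhibitors encoded by Cdkn1a, Cdkn2a and Cdkn2b hold damaged or old cells in senescence, and senescent hepatocytes and stellate cells are known from aged and fatty liver.

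p53 binds DNA through pairs of a 10-base element, the p53 half-site. Promoters are shown here because 5 of the 8 members with a RefSeq promoter window held an exact match to the half-site consensus, against 9.55% of the 27025 gene symbols with a window. By windows, 5 of the members' 10 held a match, against 8.36% of all 32851. A window runs from 250 bases before to 50 bases after a gene's start, and the consensus reads the same on both strands. The 250 bases before the start are printed, on the gene's own strand, with exact half-site matches in capitals. The sequences are RefSeq's for the GRCm38.p6 build, at chr17:29090729-29090978 on the plus strand for Cdkn1a, chr11:40755287-40755536 on the minus strand for Ccng1, chr7:45466899-45467148 on the minus strand for Bax, chr10:117710759-117711008 on the minus strand for Mdm2, chr11:69580109-69580358 on the plus strand for Trp53 and chr1:135765835-135766084 on the plus strand for Phlda3.
Cdkn1a: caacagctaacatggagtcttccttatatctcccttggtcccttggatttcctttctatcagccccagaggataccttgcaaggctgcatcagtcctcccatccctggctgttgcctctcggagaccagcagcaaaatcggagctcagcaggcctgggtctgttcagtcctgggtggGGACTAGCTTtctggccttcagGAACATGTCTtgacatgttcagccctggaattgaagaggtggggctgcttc
Ccng1: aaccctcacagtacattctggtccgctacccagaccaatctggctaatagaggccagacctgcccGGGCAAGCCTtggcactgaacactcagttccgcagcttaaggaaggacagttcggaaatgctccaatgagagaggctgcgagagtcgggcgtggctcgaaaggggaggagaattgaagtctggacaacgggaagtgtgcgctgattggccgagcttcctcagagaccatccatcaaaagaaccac
Bax: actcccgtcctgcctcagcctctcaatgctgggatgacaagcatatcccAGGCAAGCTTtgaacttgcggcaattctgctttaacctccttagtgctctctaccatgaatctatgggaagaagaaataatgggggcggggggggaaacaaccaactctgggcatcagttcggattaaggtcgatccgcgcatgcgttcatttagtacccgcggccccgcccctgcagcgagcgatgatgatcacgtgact
Mdm2: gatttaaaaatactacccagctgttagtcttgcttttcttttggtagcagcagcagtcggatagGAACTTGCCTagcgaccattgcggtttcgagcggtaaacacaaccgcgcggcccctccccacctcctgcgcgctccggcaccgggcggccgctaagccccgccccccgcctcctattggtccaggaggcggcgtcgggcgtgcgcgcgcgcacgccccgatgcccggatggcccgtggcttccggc
Trp53: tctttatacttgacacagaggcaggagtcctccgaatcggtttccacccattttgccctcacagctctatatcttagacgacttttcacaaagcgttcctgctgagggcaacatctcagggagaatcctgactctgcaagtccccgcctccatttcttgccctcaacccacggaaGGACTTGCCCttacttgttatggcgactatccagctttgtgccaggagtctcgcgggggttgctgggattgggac
Phlda3: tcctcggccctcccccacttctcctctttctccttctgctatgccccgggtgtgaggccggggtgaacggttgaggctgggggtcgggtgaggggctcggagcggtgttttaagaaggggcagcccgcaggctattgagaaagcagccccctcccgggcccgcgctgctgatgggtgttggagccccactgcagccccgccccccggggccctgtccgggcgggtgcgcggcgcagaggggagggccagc

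Cdkn1a has 2 starts with a window, and the printed window is that of the upstream start, at chr17:29090979. It held 2 matches, GGACTAGCTT and GAACATGTCT, which begin 73 and 51 bases before that start. The second is followed directly by a half-site with 1 mismatch, and together they read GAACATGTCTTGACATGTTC. The match in Ccng1, GGGCAAGCCT, begins 185 bases before the start and is preceded directly by a half-site with 1 mismatch, so that the pair reads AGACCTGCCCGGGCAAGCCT. Such an adjacent pair with at most 1 mismatch stood in 0.0883% of all windows. Bax held AGGCAAGCTT at 201 bases, Mdm2 held GAACTTGCCT at 186 bases, and Trp53 held GGACTTGCCC at 75 bases before the start. No exact match was present in the windows of Phlda3, Cdkn2a and Cdkn2b, or in the window of the downstream Cdkn1a start, at chr17:29093769. Which Cdkn1a start is used in these livers was not tested. A match is a string of letters, and p53 binding was not measured in this study. A missing match says only that these letters are not in this window.

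Levels are log2 of the processed spot signal minus the 75th percentile of the same array, so a level of 0 is the signal of a spot at that percentile, and a difference of 1 is 2-fold. The error of a level or of a difference is the one given by the image analysis, and it covers measurement only. A pair of arrays was said to differ beyond measurement error where the difference exceeded 1.96 times its error. Levels of different probes are not comparable, and each gene is therefore read across arrays. Of 59305 spots on each array, 33668 to 37402 were well above background, and none was saturated. The lowest level well above background was -4.52 on the natural aging, -4.75 on the diabetic, -4.95 on the metformin and -4.84 on the combination array. Levels near it carry larger errors, and so do folds against them. All 15 member probes except the 2 for Cdkn2a were well above background on all 4 arrays. Spots with an outlier flag affected the only Ccng1 probe and 1 of the 2 Trp53inp1 probes, which left 13 usable probes for 8 members. Where a gene had several usable probes, the one with the highest mean signal stood for the gene in counts.

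**Figure D1:**
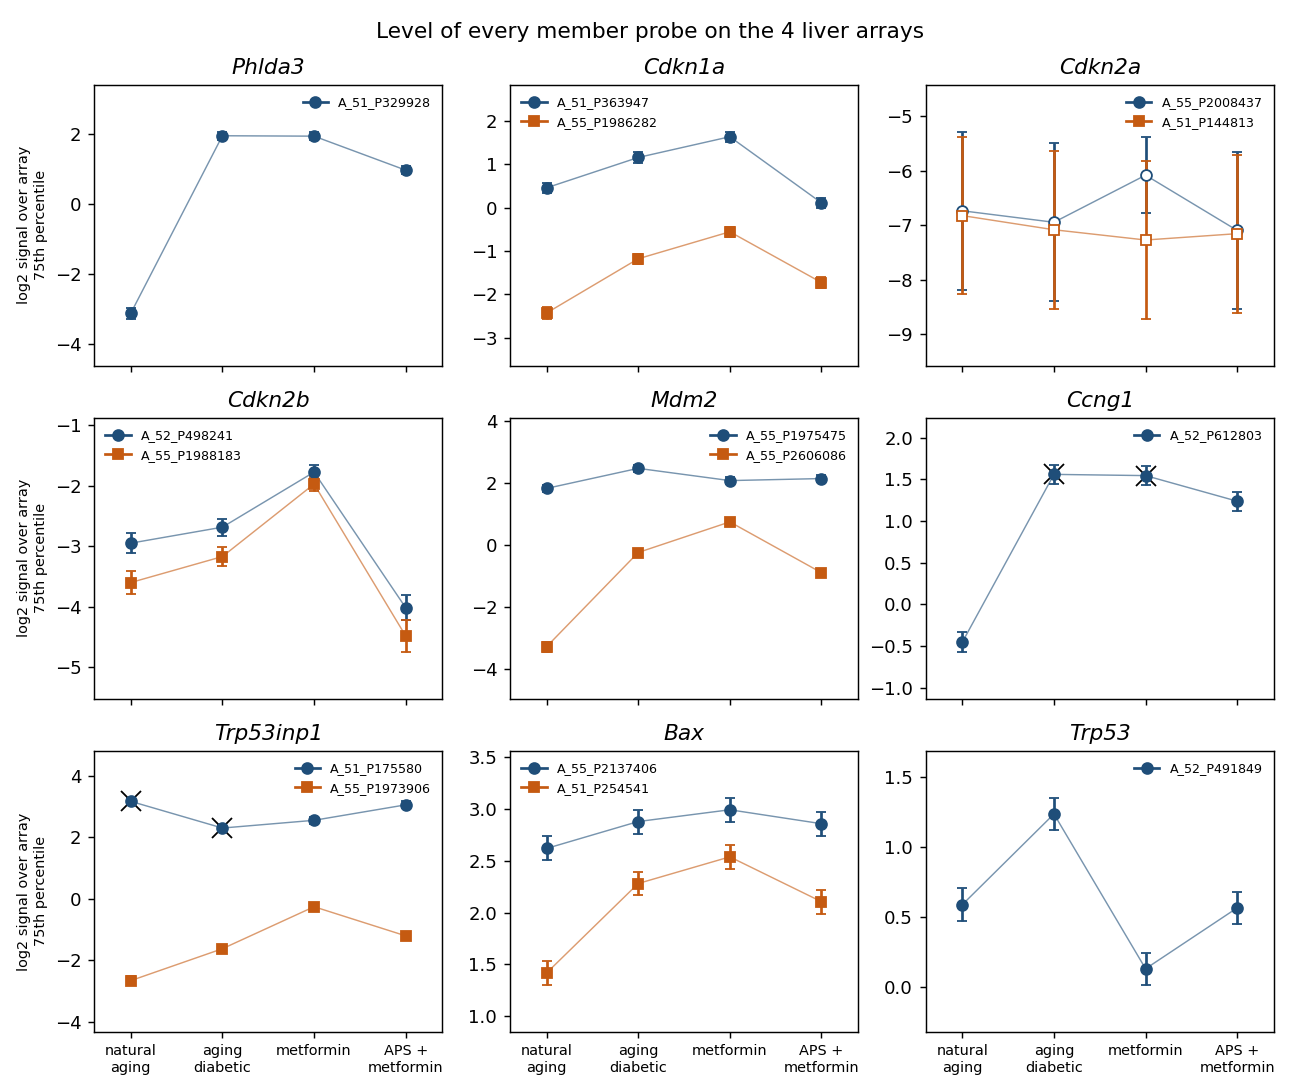
Level of each of the 15 member probes on the 4 arrays, as log2 signal over the array's 75th percentile, with the measurement error as bars. Open symbols were not well above background, crosses mark spots with an outlier flag. Phlda3 lies at -3.13 on the natural aging array and between 0.97 and 1.96 on the 3 arrays from diabetic mice.

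The level of Trp53 itself spanned 2.15-fold over the arrays. Trp53 (probe A_52_P491849) stood at 0.59 on the natural aging array, 1.23 on the diabetic array, 0.13 with metformin and 0.56 on the combination array. The diabetic array was the highest and the metformin array the lowest, while natural aging and combination did not differ beyond measurement error. Between the metformin and the diabetic array the difference was -1.10 with an error of 0.16, a level 2.15-fold lower with metformin. Trp53 was the one member with its lowest level on the metformin array, the array on which 4 other members had their highest. Against natural aging, Trp53 was 1.57-fold higher on the diabetic array.

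Mdm2 ubiquitinates p53 and is also one of its targets. Its brighter probe, A_55_P1975475, gave 1.83 on the natural aging, 2.47 on the diabetic, 2.08 on the metformin and 2.14 on the combination array. Its dimmer probe, A_55_P2606086, gave -3.27, -0.24, 0.75 and -0.89 in the same order. Natural aging was the lowest array for both probes, but the size differed widely. The diabetic array was 1.57-fold above natural aging by the brighter probe and 8.18-fold above it by the dimmer probe, with errors of 0.16 and 0.20. With metformin the probes split further: the brighter was 0.39 lower than on the diabetic array, and the dimmer was 0.99 higher. Between metformin and natural aging the dimmer probe differed by 4.02 (16.2-fold), and the brighter by 0.25, within measurement error. The dimmest and brightest probes were compared in 3445 genes with several usable probes well above background on all 4 arrays. In 3.77% of them, the dimmest probe's difference between diabetic and natural aging was at least 2-fold more positive than the brightest's. In metformin against natural aging it was 4.27%. Among the 1469 genes whose 2 probes lay at least 2 log2 apart in mean level, as those of Mdm2 do, the shares were 5.11% and 5.38%. These shares count every gap of at least 2-fold, and the gap between the Mdm2 probes was larger in both comparisons. Genes with a gap as large as that of Mdm2 were not counted. The level of Mdm2 therefore depends on the probe in these data, and which transcripts the probes detect was not tested.

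Phlda3, which encodes a small pleckstrin homology domain protein that p53 induces and that blocks membrane binding of the kinase Akt, had the largest difference of the members. Its probe, A_51_P329928, had a processed signal of 308 on the natural aging array, 11949 on the diabetic array, 13864 with metformin and 6694.5 on the combination array. As levels these are -3.13, 1.96, 1.95 and 0.97. The natural aging array stood far below the other arrays, the diabetic and metformin arrays could not be told apart, and the combination array lay between. The diabetic level was 34.1-fold above natural aging, a difference of 5.09 with an error of 0.20. This was the sixth largest positive difference of 14453 genes compared, and in metformin and the combination against natural aging Phlda3 ranked 13 of 15548 and 14 of 14634. With the combination, Phlda3 was 1.98-fold lower than on the diabetic array and 17.2-fold above natural aging. Its paralog Phlda2, an imprinted growth regulator, was well above background only on the diabetic array at -4.07 and on the metformin array at -3.25.

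Cdkn1a encodes p21, the inhibitor of cyclin-dependent kinases through which p53 stops the cell cycle. Probe A_51_P363947 stood at 0.45 on the natural aging, 1.15 on the diabetic, 1.63 on the metformin and 0.11 on the combination array. Probe A_55_P1986282, for another RefSeq transcript of the gene, stood at -2.43, -1.18, -0.56 and -1.73 in that order. By both probes the metformin array was the highest and the diabetic array the next. The diabetic array lay above natural aging by 0.70 and 1.25, or 1.62-fold and 2.38-fold, with errors of 0.16 and 0.18. Metformin lay above diabetic by 0.48 and 0.62. With the combination, the difference from metformin was -1.52 by the first probe (2.88-fold lower) and -1.17 by the second (2.25-fold lower). The probes parted in which array was lowest, since the combination was 0.35 below natural aging by the first and 0.70 above it by the second.

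Ccng1 encodes cyclin G1, which brings a phosphatase to Mdm2. Its single probe, A_52_P612803, gave -0.46 on the natural aging, 1.56 on the diabetic, 1.55 on the metformin and 1.24 on the combination array. The natural aging array was the lowest, as for Phlda3, and the diabetic level was 4.05-fold above it. The spots on the diabetic and metformin arrays carried an outlier flag, so Ccng1 is left out of all counts. Between the combination and natural aging, where neither spot was flagged, the difference was 1.69 (3.24-fold) with an error of 0.16. The paralog Ccng2, which is not a classical p53 target, went the other way and was at 1.18 on the natural aging array and between 0.51 and 0.60 on the others.

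Trp53inp1 encodes a stress protein that promotes p53 phosphorylation and autophagy. The usable probe, A_55_P1973906, stood at -2.67 on the natural aging, -1.63 on the diabetic, -0.26 on the metformin and -1.21 on the combination array. All 4 arrays differed beyond measurement error, with natural aging lowest and metformin highest. Metformin was 2.58-fold above diabetic and 5.30-fold above natural aging. The other probe, A_51_P175580, gave 3.17, 2.30, 2.55 and 3.06 in the same order, with an outlier flag on the first 2 arrays. That probe is brighter and puts natural aging highest, so the direction for Trp53inp1 against natural aging rests on leaving out the flagged spots. On the 2 arrays without a flag, the probes also disagreed, with the combination 0.95 lower than metformin by the first probe and 0.50 higher by the other.

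Bax encodes the pore-forming protein that releases cytochrome c from mitochondria in apoptosis. Probe A_51_P254541 gave 1.42 on the natural aging, 2.28 on the diabetic, 2.54 on the metformin and 2.11 on the combination array. Probe A_55_P2137406 gave 2.62, 2.88, 2.99 and 2.86. Both probes had the same order of arrays, natural aging lowest and metformin highest. The dimmer probe was 1.82-fold higher on the diabetic than on the natural aging array, whereas the brighter differed by 0.26 with an error of 0.16. Between the 3 arrays from diabetic mice, the brighter Bax probe differed by 0.13 at most, within measurement error.

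Of the 2 genes of the Cdkn2 locus, only Cdkn2b was detected. Cdkn2a encodes the senescence proteins p16INK4a and p19ARF, of which the latter blocks Mdm2. Its probes A_51_P144813 and A_55_P2008437 were not flagged as well above background on any array. Their processed signals were 22.6 to 52.9, after subtraction of background. The median local background before subtraction was 44 to 47. No level or difference is given for Cdkn2a, and a transcript level below this limit of detection cannot be told from its absence. Cdkn2b, the neighbouring gene, encodes p15INK4b, an inhibitor of Cdk4 and Cdk6 that TGF-beta induces. Probe A_52_P498241 stood at -2.95 on the natural aging, -2.68 on the diabetic, -1.77 on the metformin and -4.01 on the combination array. Probe A_55_P1988183 stood at -3.60, -3.17, -1.97 and -4.48. The 2 probes gave the same order, with the metformin array highest, the combination array lowest, and natural aging and diabetic not apart beyond measurement error. The combination was 4.73-fold below metformin by the first probe and 5.70-fold by the second, with errors of 0.24 and 0.29. It was also 2.52-fold and 2.48-fold below diabetic. Levels of Cdkn2b on the combination array are near its lowest level well above background, -4.84, so these folds are less certain.

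**Figure D2:**
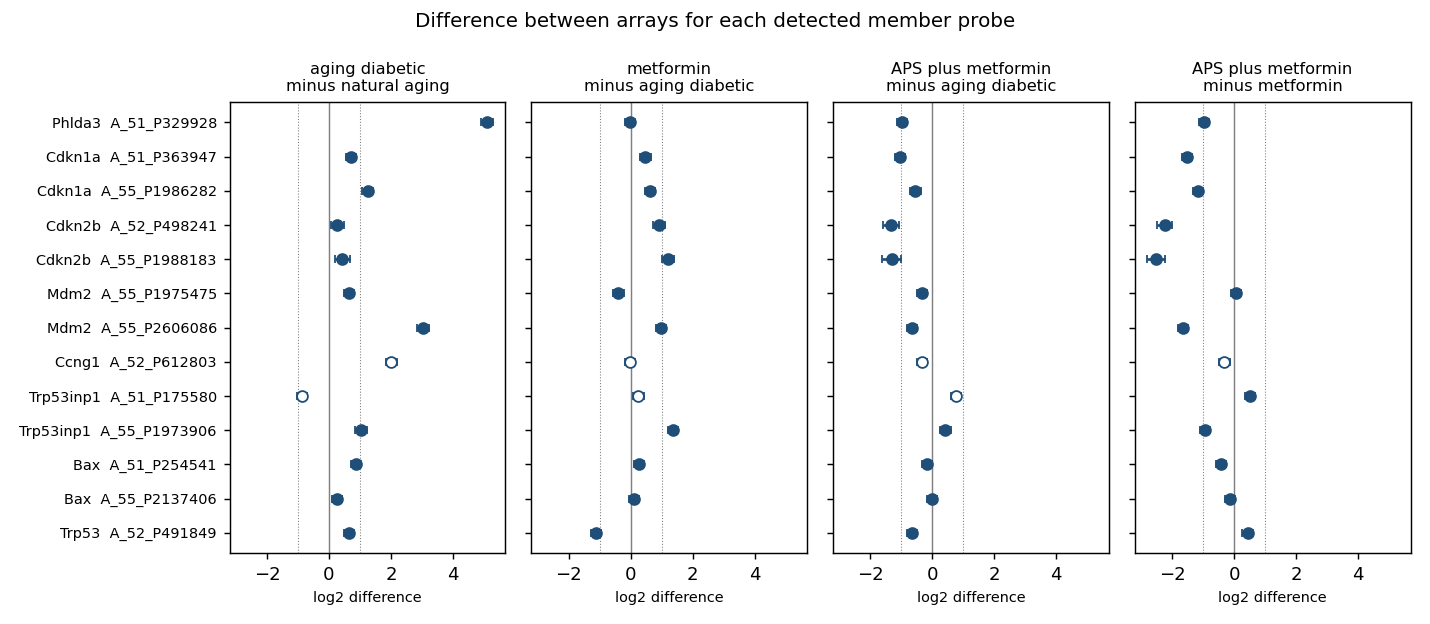
Difference between arrays for the 13 member probes that were detected, on the log2 scale, with the measurement error as bars and dotted lines at 1 and -1. Open points rest on a spot with an outlier flag. Against natural aging, Phlda3 at 5.09 and the dimmer Mdm2 probe at 3.03 lie far to the right, and in APS plus metformin minus metformin the points farthest to the left are the Cdkn2b probes at -2.24 and -2.51.

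Of the 9 members, 7 could be counted in each comparison, with a call at 2-fold. In diabetic against natural aging, 2 of the 7 were higher, Phlda3 and Trp53inp1, and none was lower (median 0.65), where 8.20% of all genes compared were higher and 6.09% lower. The median over all genes was -0.04. In metformin against diabetic, Trp53inp1 was higher and Trp53 lower (median 0.11), where 11.9% of all genes were higher and 3.53% lower. In the combination against diabetic, Cdkn1a and Cdkn2b were lower and none was higher, where 6.90% of all genes were lower and 4.38% higher. The members' median there was -0.67. In the combination against metformin, the same 2 genes were lower and none higher, where 12.4% of all genes were lower and 2.37% higher, and the median was -0.95. Phlda3 and Trp53inp1 fell just short of a call in that comparison, at -0.97 and -0.95. In metformin against natural aging, Phlda3, Cdkn1a, Cdkn2b and Trp53inp1 were higher (median 1.18), where 13.0% of all genes were higher and 4.71% lower. In the combination against natural aging, Phlda3 and Trp53inp1 were higher and Cdkn2b lower (median 0.24), where 6.14% of all genes were higher and 6.68% lower. These 6 comparisons share arrays, so they are not independent of each other, and since the members were picked with values in view, their shares are no evidence beyond the levels themselves. Calls near the threshold moved with the processing: Trp53inp1 in diabetic against natural aging, at 1.04, lost its call under quantile normalization, median scaling, the authors' series table and normexp background correction. In metformin against natural aging, 2 members were called with median scaling, and in the combination against natural aging 1 with normexp background correction.

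Other p53 target genes were read from a list of 40 genes, of which 34 had a usable probe. Most were somewhat higher in the diabetic livers than in the natural aging liver. In diabetic against natural aging, 9 of 33 compared (8.20% of all genes) were at least 2-fold higher and 1 lower (6.09% of all genes), with a median of 0.55 and 78.8% of them above 0, against a median of -0.04 and 45.8% above 0 over all genes. Zmat3, an RNA-binding protein of the p53 pathway, was 4.41-fold higher, and its level was -1.86 on the natural aging array and 0.28, 0.94 and 0.57 on the diabetic, metformin and combination arrays. Bbc3, which encodes the cell death protein PUMA, was 3.47-fold higher. Gdf15, a circulating stress factor, was 2.86-fold higher. Ckap2, a spindle protein, was 4.33-fold higher, while the stress kinase gene Plk3 was 2.63-fold lower. The other genes at least 2-fold higher were Plk2, Dglucy, Psrc1 and Tigar, with Gtse1 at a bound of at least 2.94-fold, since it was dim in natural aging.

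With metformin the list was higher again. In metformin against diabetic, 7 of 34 were at least 2-fold higher and none lower, where 11.9% of all genes were higher and 3.53% lower. The list's median was 0.23, against -0.00 over all genes. The largest were Ckap2, 6.97-fold higher, and Psrc1, 4.69-fold higher, both genes of the mitotic spindle. In metformin against natural aging, 14 of 34 were higher and none lower, beside 13.0% and 4.71% of all genes, with a median of 0.87. Ckap2 stood at -4.38 on the natural aging and 0.53 on the metformin array, a difference of 4.91 (30.2-fold) with an error of 0.31. Its natural aging level is near that array's lowest level well above background, -4.52, so its folds against natural aging are less certain. Zmat3 was 6.98-fold and Gdf15 4.72-fold higher in that comparison.

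With the combination the list was lower than with metformin alone. In the combination against metformin, 10 of 34 were at least 2-fold lower and none higher, beside 12.4% and 2.37% of all genes, with a median of -0.41 against -0.03 over all genes. Ckap2 was 7.60-fold lower and Gtse1, a p53-binding protein of dividing cells, was 6.43-fold lower. Pmaip1, which encodes the cell death protein NOXA, was 4.04-fold lower. Against diabetic, 4 of 33 were lower, beside 6.90% of all genes, among them Gadd45a, a DNA damage response gene, at 2.21-fold, and Bbc3 at 2.03-fold, while Plk3 was 2.01-fold higher. Against natural aging, 7 of 33 were still higher and 1 lower, beside 6.14% and 6.68% of all genes, with a median of 0.52 and Zmat3 5.40-fold higher. Of the 32 listed targets detected on all 4 arrays, 19 (59.4%) had their lowest level on the natural aging array and 18 (56.2%) their highest on the metformin array, against 23.7% and 23.5% of 12689 genes. The list's median kept its sign in all 6 comparisons under each of the other scalings of the arrays.

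**Figure D3:**
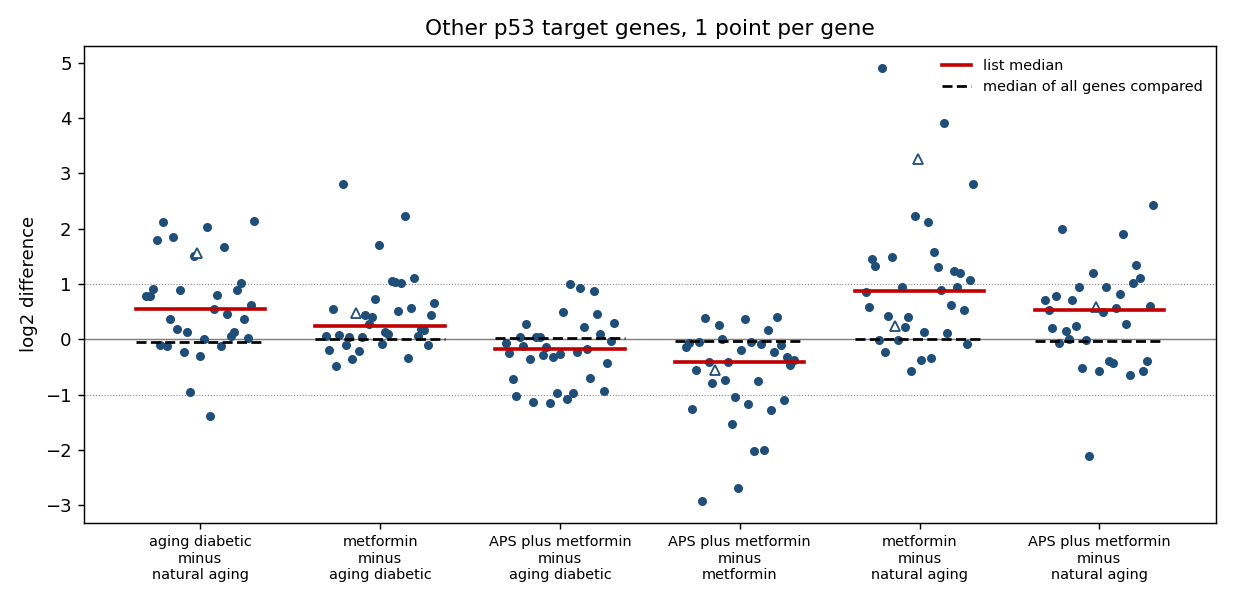
Log2 difference of each listed p53 target gene other than the members, 1 point per gene, in 6 comparisons; triangles are bounds for genes dim on 1 array, red lines list medians and dashed lines medians of all genes compared. The red line lies at 0.55 in aging diabetic minus natural aging, at 0.87 in metformin minus natural aging and at -0.41 in APS plus metformin minus metformin.

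Few genes that act on p53 were past 2-fold. Of 23 usable genes of this list, such as the kinases Atm and Chek2 and the Mdm2 partner Mdm4, none was past 2-fold in diabetic against natural aging. Over all genes, 8.20% were higher and 6.09% lower there. The list's median was -0.18, a value that turned to 0.02 under quantile normalization. In metformin against diabetic, Ppp1r13l, which encodes the p53 inhibitor iASPP, was 2.04-fold higher, the only listed gene past 2-fold. Of all genes, 11.9% were higher and 3.53% lower in that comparison. Between the combination and metformin, the checkpoint kinase gene Chek1 was 2.49-fold lower, again the only one, where 12.4% of all genes were lower and 2.37% higher. Mdm4, the relative of Mdm2 that masks p53, was at -2.02, -2.22, -2.29 and -1.47 on the natural aging, diabetic, metformin and combination arrays.

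Of 17 genes of the list of cyclin-dependent kinase inhibitors and G1 regulators compared in diabetic against natural aging, 1 was higher and 3 lower, with a median of 0.14, where 8.20% of all genes were higher and 6.09% lower. The inhibitors among them, set apart after values were seen, were Cdkn1b at 0.67, Cdkn1c at 1.15, Cdkn2c at 0.81, Cdkn2d at 0.34 and Cdkn3 at 0.14. Cdkn1c alone was past 2-fold, and Cdkn3, with an error of 0.25, was within measurement error. The 3 lower genes were Cdk2 and the cyclin E genes Ccne1 and Ccne2, the last at a bound. Cdkn1c, the imprinted inhibitor p57, stood at -0.90 on the natural aging, 0.25 on the diabetic, 1.29 on the metformin and 0.99 on the combination array. Its level was thus 2.22-fold higher with diabetes and a further 2.05-fold higher with metformin. The cyclin E gene Ccne1 was 3.66-fold lower on the diabetic than on the natural aging array and 3.02-fold higher with the combination than on the diabetic array. Cdkn3, a phosphatase gene of dividing cells, was 8.10-fold higher with metformin than on the diabetic array and 17.5-fold lower with the combination than with metformin. Of the regulators of the Cdkn2a locus, 14 were compared in diabetic against natural aging, with a median of -0.08. Among them 3 were higher and 2 lower, again beside 8.20% and 6.09% of all genes. The 3 higher genes were all repressors of the locus. The Polycomb gene Bmi1 was 3.56-fold and Tbx3 3.72-fold higher. The Polycomb gene Cbx8, dim on the natural aging array, was higher at a bound of 2.97-fold. Other repressors stayed under 2-fold. The Polycomb genes Rnf2, Eed, Suz12 and Ezh2 differed by -0.73, -0.14, -0.07 and 0.07, and Tbx2 by -0.66. Bmi1, at -4.29 on the natural aging array, was near that array's lowest level well above background, -4.52, and its difference has an error of 0.34. The 2 lower genes were the activator gene Ets2, 2.49-fold, and Ets1, at a bound of 3.05-fold since it was dim on the diabetic array. The inhibitor of differentiation Id1 was 3.86-fold higher with metformin and 3.95-fold higher with the combination than on the diabetic array.

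The relatives of Bax split in both directions. In diabetic against natural aging, 2 of the 14 usable BCL-2 family genes were at least 2-fold higher and 4 lower, beside 8.20% and 6.09% of all genes, with a median of -0.26. Besides Bbc3, which is also on the p53 target list, the tissue-restricted killer gene Bik was 2.17-fold higher. Bcl2l11, which encodes BIM, was 8.41-fold lower, and stood at 1.68 on the natural aging array and between -1.40 and -1.03 on the 3 arrays from diabetic mice. The stress sensor gene Bmf was 2.80-fold lower. With metformin, Bcl2a1d, a survival gene of blood cells, was 2.96-fold higher and Bik 2.71-fold lower than on the diabetic array. With the combination, Pmaip1 was lower than with metformin, as given above, and Bik was 2.02-fold higher.

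Most secreted factors linked to senescence were higher on the metformin array than on the other arrays from diabetic mice. Of 30 listed secreted factors, 23 were compared in diabetic against natural aging, where 2 were at least 2-fold higher and 10 lower, beside 8.20% and 6.09% of all genes, with a median of -0.97. The neutrophil chemokine Cxcl1 was 9.52-fold lower, while the chemokine Ccl3 was 3.88-fold higher. In metformin against diabetic, 19 of 28 were higher and none lower, beside 11.9% and 3.53% of all genes, with a median of 1.28. The monocyte chemokine Ccl2 was 15.1-fold and the growth factor Areg 12.8-fold higher. The Areg difference starts from a low diabetic level of -4.53 and has an error of 0.31. Against metformin, the combination had 15 of 28 lower and none higher, beside 12.4% and 2.37% of all genes, with a median of -1.03, and Ccl2 was 9.64-fold lower. Against diabetic the combination had 3 of 23 higher and 1 lower, beside 4.38% and 6.90% of all genes. The median was 0.39, where the members' median was -0.67. Metformin against natural aging had 11 of 28 higher and 2 lower, beside 13.0% and 4.71% of all genes, with a median of 0.40.

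The cell cycle genes that the DREAM complex represses downstream of p21 had a median of -0.50 on the diabetic against the natural aging array. None of 19 was higher and 6 were lower, beside 8.20% and 6.09% of all genes. The replication helicase gene Mcm6 was 14.8-fold and the proliferation marker Mki67 6.10-fold lower. In metformin against diabetic, 15 of 21 were higher and none lower, again beside 11.9% and 3.53% of all genes, with a median of 1.81, and Mcm6 was 32.6-fold higher. In the combination against metformin, 17 of 21 were lower and none higher, again beside 12.4% and 2.37%, with a median of -1.76, and Mcm6 was 18.0-fold lower. Between the combination and diabetic, 2 of 17 were higher and 2 lower, beside 4.38% and 6.90% of all genes, with a median of 0.17. Cdkn1a, whose product acts through this complex, was highest on the metformin array, the array on which Mki67, at 0.17, and Mcm6, at 1.37, were highest too. The medians of both lists kept their sign under every scaling in these 3 comparisons.

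**Figure D4:**
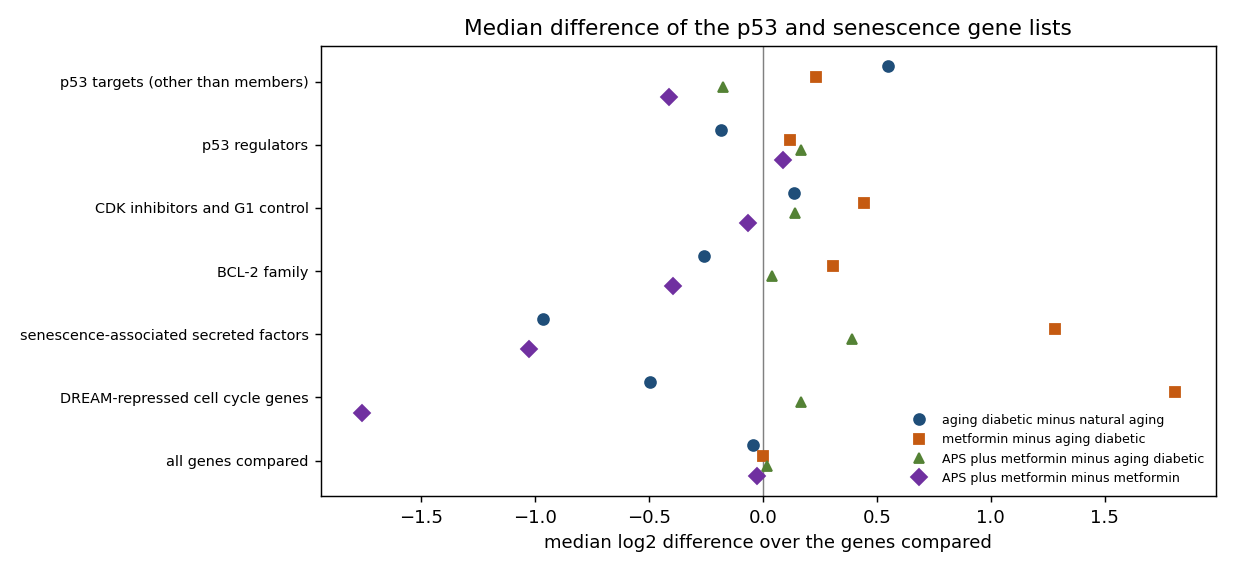
Median log2 difference of 6 gene lists and of all genes compared, in 4 comparisons. The lists of secreted factors and of cell cycle genes reach 1.28 and 1.81 in metformin minus aging diabetic and -1.03 and -1.76 in APS plus metformin minus metformin, while the p53 target list stays between -0.41 and 0.55.

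Markers of cell types moved with these groups. The summed signal of 8 lymphocyte markers, in units of the array's 75th percentile, was 1.39 on the natural aging, 0.469 on the diabetic, 3.54 on the metformin and 0.707 on the combination array, with the B cell gene Cd79a among those not well above background on any array. It was thus highest on the array on which Cdkn1a and Cdkn2b were highest. Of the listed genes detected on all 4 arrays, 13 of 14 cell cycle genes and 12 of 19 secreted factors were highest there too. The other 7 secreted factors were highest on the natural aging array. The 6 usable hepatocyte markers, all detected on all arrays, summed to 124 on the natural aging array, the highest, and to 79.4 on the metformin array, the lowest. In the order natural aging, diabetic, metformin and combination, the 7 usable macrophage markers summed to 47.4, 33.1, 40.6 and 27.8, and the 6 usable stellate cell markers to 16.9, 9.15, 17.6 and 13.4. The stellate sum includes Reln, not well above background on any array. Each sum is weighted to its brightest probes. From diabetic to metformin, 5 of 7 macrophage markers compared were higher, while Marco (1.02 to -0.37) and Clec4f (2.97 to 2.63) were lower. From diabetic to combination, 3 of 5 stellate markers compared were higher, among them the brightest, Dcn (2.91 to 3.48), while Col1a1 was lower (-1.21 to -1.85). From natural aging to metformin, 5 of 6 lymphocyte markers compared were higher and Cd8a differed by -0.05. Genes of the exocrine pancreas, which liver should not hold, summed over 7 markers to 51.3 on the natural aging array and 2.49, 10.2 and 0.180 on the others. So the array with the lowest Phlda3 and Ccng1 levels was also the one with the most pancreatic signal. Trp53inp1 was lowest there by its usable probe and highest there by its flagged probe. The part of these markers in the results was not tested. In RNA of whole tissue, fewer cells of a type and less RNA per cell cannot be told apart.

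The genes most like Phlda3 across the 4 arrays were found by the distance between profiles, after subtracting each gene's mean, among 3684 genes that were detected on all arrays and ranged over at least 2-fold. The nearest was Slc22a27, an organic anion transporter, at a distance of 0.94 log2. It was followed by Cyp4a14, a fatty acid hydroxylase, at 1.01, the unnamed gene Gm33272 at 1.18, Mogat1, an enzyme of triglyceride synthesis, at 1.23 and Gm38832 at 1.27. Slc22a27 stood at -3.95, -0.08, 0.81 and -0.67 on the natural aging, diabetic, metformin and combination arrays. Cdkn1a, read by probe A_51_P363947, had smaller distances by the same measure. Such distances grow with a gene's range, 5.09 log2 for Phlda3 and 1.52 for Cdkn1a, so the 2 genes cannot be compared by them. The interferon-inducible gene Samd9l lay at 0.058, the dynein gene Dnah2 at 0.091, Morn5 at 0.11, the collagen gene Col12a1 at 0.13 and the protease gene Amz1 at 0.13. Dnah2, at -4.36 on the natural aging and -4.71 on the combination array, was near their lowest levels well above background, -4.52 and -4.84. Samd9l stood at -0.89, -0.18, 0.30 and -1.30 on the natural aging, diabetic, metformin and combination arrays. With 4 arrays such a likeness is only a description of these arrays.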

How the data were processed

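Whole liver RNA of 4 groups was hybridized to 4 one-colour (Cy5) arrays on 1 slide, read in 1 scan per the file headers. The deposited array files hold spot intensity, background-subtracted within each array by Agilent Feature Extraction (version 11.5.1.1 per the file headers, 10.7 per the submitters' processing notes), with its error and flags of 0 or 1. The deposited series table holds log2 values that the authors normalized in GeneSpring, per the labels' protocols, by a method not given in the sources used here. It served as an alternative. Fold changes were computed from the deposited intensity.

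The log2 of the processed signal minus each array's 75th percentile was used (75th percentiles from 2699.5 to 3589), with Python 3.11.15, numpy 2.4.6, pandas 2.3.3, R 4.3.3 and limma 3.58.1. Leaving out spots that carry an outlier flag dropped 4825 of 56605 probes and left 51780. Transcript accessions on 33767 probes matched 23462 symbols in a RefSeq table of GRCm38.p6, and 22047 symbols had a usable probe, the brightest of which stood for the gene. The headers give mm9, so no gene coordinates were joined, and promoter windows were matched by symbol.

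A gene was compared if well above background on at least 1 of the 2 arrays and called at 1 log2 (2-fold). Where 1 array is dim, a bound is taken there: the probe's own level, or the array's lowest level that is well above background if that is greater. With 1 array per group no test is possible and no p-value is given. Members and lists were chosen with earlier results of these data known. Some listed genes stand on several lists, such as Bbc3, Pmaip1 and Gdf15. The text names every member probe and the 5 genes nearest in profile to Phlda3 and to Cdkn1a. A rule selected from each list up to 2 genes per direction and comparison, with the largest measured differences past 2-fold. Only some of the genes so selected are named, so a named gene is not always the largest. A gene that this rule also selects is not reported here. The named genes Cdkn1b, Cdkn2c, Cdkn2d, Ccne2, Rnf2, Eed, Suz12, Ezh2, Tbx2, Plk2, Dglucy, Psrc1, Tigar, Mdm4, Atm, Chek2, Phlda2 and Ccng2 were added after values were seen. So were values of rule genes in comparisons where others ranked higher or where the value is a bound. Alternatives were quantile, cyclic loess and median scaling, the series table, normexp with an offset of 50, outlier spots kept, the mean of probes, stricter and no detection filters and a 1.5-fold threshold. Normexp was run on the median spot signal, as the mean signal is not used here. The procedure was tested on simulated data.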

Additional observations from a re-analysis of the deposited data

How the results depend on the processing

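Counts of members past 2-fold rest on 7 genes and shift with single calls near the threshold. In diabetic against natural aging, 2 members became 1 under quantile normalization, median scaling, the authors' series table and normexp background correction, and 5 at a 1.5-fold threshold. In metformin against diabetic, 2 became 1 with outlier spots kept. In the combination against diabetic, 2 became 1 under normexp and with the mean of probes, and 4 at 1.5-fold. For the combination against metformin, 2 became 4 with cyclic loess and at 1.5-fold. In metformin against natural aging, 4 became 2 with median scaling, and in the combination against natural aging 3 became 1 under normexp. Trp53inp1 reversed with outlier spots kept, since its brighter, flagged probe then stood for it: -0.87, -0.62 and -0.11 for diabetic, metformin and the combination against natural aging. The cause of the other shifts was not tested. Members also gained calls: Phlda3 in the combination against diabetic, at -0.99, was called under quantile normalization, cyclic loess and the authors' series table (to -1.04), and in the combination against metformin under the same 3 settings. With the mean of probes, Mdm2 was called against natural aging in diabetic (1.84), metformin (2.14) and the combination (1.35), and Cdkn2b in metformin against diabetic (1.05). Over 378 member values under alternatives, 16 changed sign and 28 changed their 2-fold call. Phlda3 against natural aging kept its call throughout, from 4.56 to 5.15 on the diabetic array.

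Over all genes, the counts past 2-fold, 2065, 2400, 1663, 2309, 2753 and 1875 in the order in which the comparisons stand above, became 3495, 3895, 2643, 3792, 4698 and 3298 without a detection filter and 4446, 4711, 3967, 4778, 5745 and 4253 at 1.5-fold. Median scaling moved the split of higher to lower from 1851 and 549 to 1427 and 805 in metformin against diabetic, from 370 and 1939 to 583 and 1500 in the combination against metformin, and from 2021 and 732 to 1490 and 1178 in metformin against natural aging. It shifted the median of all genes by -0.17, 0.16 and -0.18 there. Cyclic loess shifted it by -0.15 in the combination against metformin and 0.13 in metformin against natural aging.

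No paired analysis was possible because each group has 1 array and all carry the replicate number 1. The number of arrays, 1 per group, limits every value here, and measurement error says nothing about the spread between mice. Cdkn2a could not be read at this signal over background.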
